A study of Rattus norvegicus with 12 samples.

Results

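Cultured rat nucleus pulposus cells expressed 9 of 10 genes for the vascular endothelial growth factor (VEGF) family, its receptors and endothelial adhesion. Erastin changed 6 of these 9 under NPPC-Exo exosomes and 7 under miR-Exo exosomes, where 43.6% and 49.1% of all tested genes changed. With erastin Esam fell 43.4-fold under NPPC-Exo exosomes and 68.1-fold under miR-Exo exosomes, Flt1 fell under each, and Angpt1, Vegfc and Nrp2 rose under each. The 10 members are the ligands Vegfa, Vegfb, Vegfc and Pgf, the receptors Flt1 and Kdr, the co-receptors Nrp1 and Nrp2, the angiopoietin Angpt1 and the adhesion molecule Esam. They were taken by gene name from a table of 21071 genes, all 10 were found, and 9 of them, all except Kdr, passed the filter on low counts with 15650 genes in all. RNA was sequenced from nucleus pulposus cells of the rat intervertebral disc, cultured in serum-containing medium and divided into 4 groups of 3 libraries. The NPPC-Exo group received exosomes from nucleus pulposus progenitor cells, and the miR-Exo group received exosomes of the same kind carrying overexpressed miR-221-3p. The other 2 groups received either exosome together with erastin, a small molecule that blocks cystine uptake and induces ferroptosis. The labels give 50 µg/mL for exosomes and 0.1 to 5 µM for 48 h for erastin, without the dose of each library. Sample titles name erastin where the column names of the table say model. Every group carried exosomes, so the erastin effect was measured on an exosome background and no exosome-free group was compared. The labels do not give the strain, sex or age of the rats, and do not say if the libraries of each group are independent cultures, so p-values measure the spread between libraries, which may be technical.

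VEGF ligands are secreted dimers that bind receptor tyrosine kinases, mainly on endothelial cells. Vegfa binds Flt1 and Kdr, and Kdr carries most of the growth and permeability signal, whereas Flt1 binds Vegfa tightly, signals weakly and in a soluble form acts as a decoy. Pgf and Vegfb bind Flt1 and not Kdr, and Vegfc acts mainly on lymphatic endothelium through Flt4. Neuropilins are co-receptors shared by VEGF and class 3 semaphorins. Angpt1 activates the receptor Tek and stabilises vessels, and Esam is an immunoglobulin-family adhesion protein of endothelial junctions and platelets. The nucleus pulposus is normally avascular, and its cells are known to make VEGF. The deposited table gives 1 value per gene, so splice forms of Vegfa and soluble and membrane-bound Flt1 cannot be told apart here.

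Library totals ran from 54616827 to 68865720 counts. The main component of variation within groups held 31% of the within-group variance and was led by NPPC-Exo replicate 1 and miR-Exo replicate 1, with weights of -0.582 and -0.424, and results that rest on either library are given without it. The endothelial markers found in the table, 13 genes, summed to between 4.52 and 10.04 FPKM in any library, and 10 of the 13 stayed under 1 FPKM throughout. Without erastin most of that sum was Egfl7, at means of 6.62 and 5.59 FPKM, and Erg, at 2.25 in each group, while with erastin and miR-Exo Egfl7 averaged 2.36 and Erg 0.187 FPKM. Tie1 and Vwf stayed at or below a mean of 0.1 FPKM in every group. Pecam1, Cdh5, Cldn5, Emcn and Robo4 were looked for but not matched by gene name, so the endothelial sum lacks them. Nucleus pulposus and cartilage markers, 11 genes led by the proteoglycan gene Acan, summed to 956.6 to 1113 FPKM under NPPC-Exo and 1034 to 1205 under miR-Exo. With erastin the same sum was 208.8 to 225.8 FPKM under NPPC-Exo and 163.8 to 178.4 under miR-Exo. Acan carried most of it, and of the 10 tested markers 3 were called higher and 5 lower with erastin under NPPC-Exo and 2 higher and 6 lower under miR-Exo. Of all tested genes, 21.5% were called higher and 22.1% lower under NPPC-Exo, and 24.7% and 24.4% under miR-Exo. In bulk RNA, fewer cells of a type and less RNA per cell cannot be told apart. Genes that are named as moving below were called by edgeR's quasi-likelihood test at a Benjamini-Hochberg adjusted p under 0.05 over all 15650 genes, on counts with library sizes adjusted by the trimmed mean of M values method (TMM). Log2 changes are given with their standard error, and CPM is the TMM-adjusted count rate of a library, which is not per length.

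Levels between genes were compared as FPKM, which is per length of gene. Under NPPC-Exo the order ran from Esam at 48.4 ± 4.46 FPKM (SD, n = 3) through Vegfa at 42.1 ± 1.61 and Nrp2 at 29.1 ± 1.21 down to Pgf, Vegfc, Nrp1, Flt1, Vegfb and Angpt1, with Kdr last at 0.003. In that group no neighbours in the order overlapped between libraries. Under miR-Exo Esam was again highest at a mean of 55.2 FPKM, ahead of Vegfa at 39.4 and Nrp2 at 27.7, and Vegfb and Flt1 overlapped at 2.64 and 2.58. With erastin and NPPC-Exo Vegfa led at 57.7 FPKM and overlapped Nrp2 at 56.0, Vegfc at 15.1 overlapped Pgf at 14.01, and Vegfb, Esam and Flt1 overlapped at 1.44, 1.35 and 1.17. With erastin and miR-Exo the order was Vegfa at 55.1, Nrp2 at 48.5, Vegfc at 21.3, Angpt1 at 11.6, Nrp1 at 8.21 and Pgf at 6.60 FPKM, followed by Vegfb at 1.57, with Esam at 0.987 and Flt1 at 0.847 overlapping. Esam, the most abundant member per length without erastin, was thus among the lowest with it. Of the 21071 genes in the table, 1191 had a higher mean FPKM than Esam under NPPC-Exo and 11413 with erastin added, and 1083 under miR-Exo and 12058 with erastin added. Vegfa stayed high, with between 1141 and 1580 genes above it in each group.

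**Figure D1:**
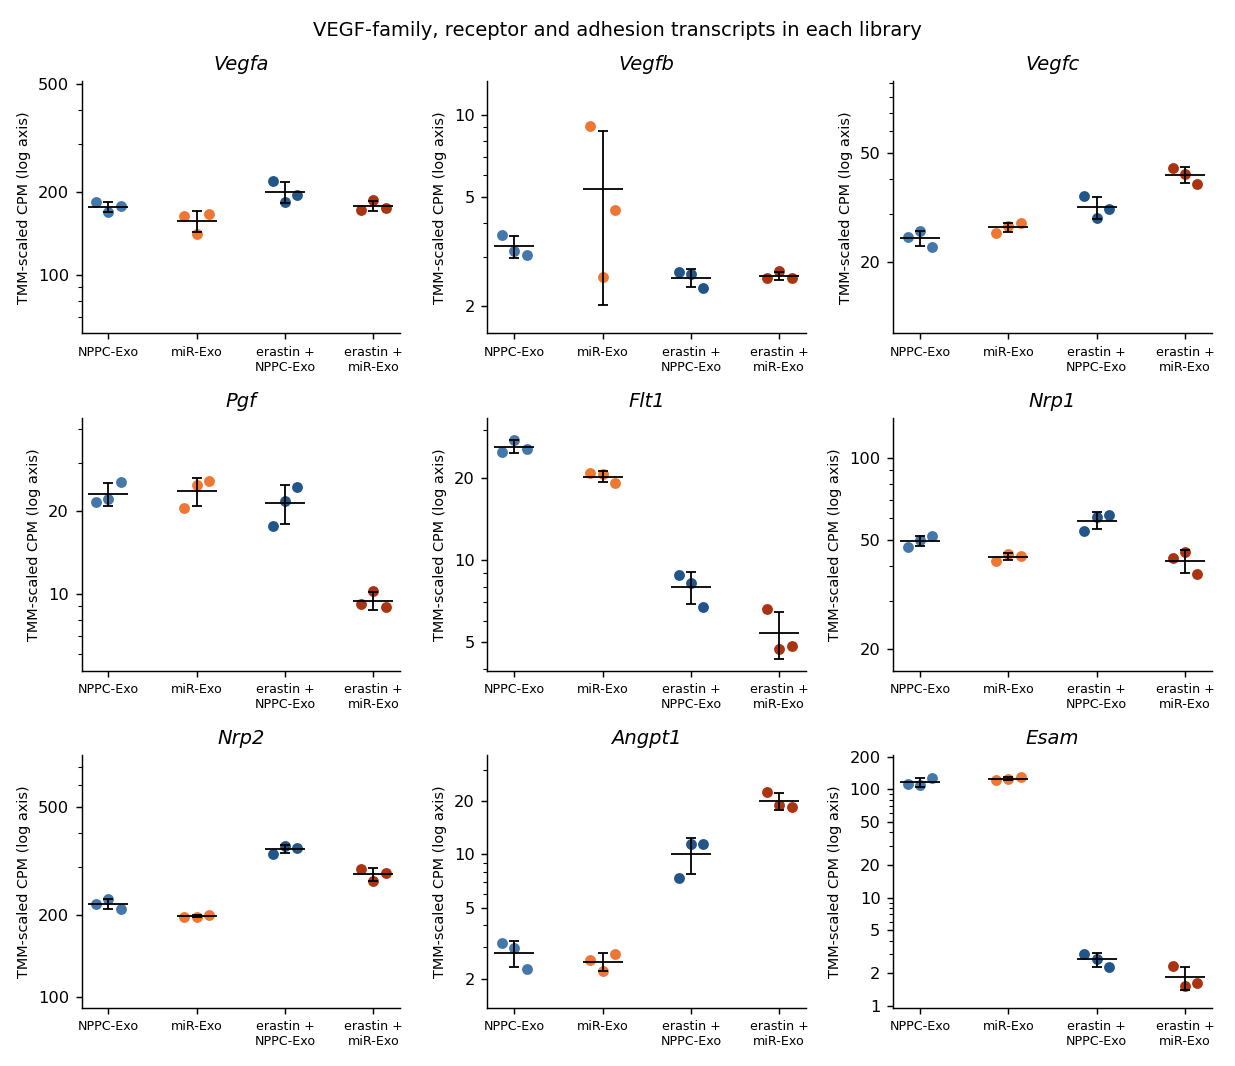
TMM-scaled CPM of the 9 tested members on log axes that differ between panels, by group, with 1 point per library and bars for the mean ± SD of 3 libraries. Esam stood between 108 and 129 CPM in all 6 libraries without erastin and between 1.54 and 3.03 CPM in the 6 with it, while Angpt1 moved the other way.

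Promoter sequences show what the start regions of the ligand and receptor genes hold. RefSeq promoter windows of assembly GRCr8, the 250 bases before the annotated start, matched 8 of the 10 members and gave 9 windows, with 2 for Vegfa. No window was used for Esam and Angpt1. Shown are Vegfa, the most abundant ligand, Vegfc and Pgf, ligands that moved in opposite directions with erastin under miR-Exo, and Flt1, the receptor that fell. Capitals mark motif matches on either strand, namely the GC box GGGCGG, the cyclic AMP response element TGACGTCA and the TATA box TATAAA.
Vegfa, chr9:22452604-22452853, plus strand: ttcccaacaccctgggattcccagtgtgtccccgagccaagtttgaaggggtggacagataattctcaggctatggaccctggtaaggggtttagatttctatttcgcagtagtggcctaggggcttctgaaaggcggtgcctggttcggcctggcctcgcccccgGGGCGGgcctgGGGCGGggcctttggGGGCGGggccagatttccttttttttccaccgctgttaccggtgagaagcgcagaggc
Vegfc, chr16:44560888-44561137, minus strand: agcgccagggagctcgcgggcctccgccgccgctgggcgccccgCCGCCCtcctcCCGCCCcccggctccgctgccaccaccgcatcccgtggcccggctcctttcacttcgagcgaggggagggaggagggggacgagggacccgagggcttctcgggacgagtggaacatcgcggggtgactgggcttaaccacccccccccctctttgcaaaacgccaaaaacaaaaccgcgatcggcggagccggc
Pgf, chr6:110557748-110557997, minus strand: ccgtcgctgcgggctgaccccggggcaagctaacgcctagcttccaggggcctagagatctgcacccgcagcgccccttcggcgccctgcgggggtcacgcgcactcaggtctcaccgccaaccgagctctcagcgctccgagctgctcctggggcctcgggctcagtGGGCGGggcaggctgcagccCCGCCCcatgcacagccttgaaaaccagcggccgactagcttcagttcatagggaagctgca
Flt1, chr12:12333180-12333429, plus strand: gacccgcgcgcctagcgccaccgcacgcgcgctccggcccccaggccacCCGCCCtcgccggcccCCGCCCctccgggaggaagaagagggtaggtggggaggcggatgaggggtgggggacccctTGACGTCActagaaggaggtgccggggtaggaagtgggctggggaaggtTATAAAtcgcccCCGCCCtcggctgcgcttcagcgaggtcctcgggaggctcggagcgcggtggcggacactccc
The Vegfa window shown held 3 GC boxes, Vegfc 2, Pgf 2 and Flt1 3, whereas the second Vegfa window held 0, and 30.5% of 33469 RefSeq windows of this length held at least 1. Flt1 alone among the 9 windows held the full cyclic AMP response element, 124 bases before the start, which 1.59% of all windows contained, and it also held a TATA box, found in 12.9%. Neither the hypoxia response core ACGTG, in 16.6% of all windows, nor the AP-1 site TGANTCA, in 6.34%, was matched in any of the 9 windows. These matches describe letters within the window and are not binding sites. Sequence outside the 250 bases was not searched, so a motif there would be missed. The microRNA carried by the miR-Exo exosomes is shown with its seed, bases 2 to 8, in capitals, from RefSeq on chrX:6023246-6023268 of GRCr8, plus strand.
rno-miR-221-3p: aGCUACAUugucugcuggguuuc

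The first question was what erastin did to these genes under each exosome. Under NPPC-Exo, 6 of the 9 tested members were called, 4 higher and 2 lower, where 43.6% of all tested genes were called, 21.5% higher and 22.1% lower. Under miR-Exo 7 of 9 were called, 3 higher and 4 lower, against a background of 49.1%, with 24.7% higher and 24.4% lower. The median log2 change of the members was 0.18 under NPPC-Exo and -0.05 under miR-Exo, beside 0.02 and 0.03 over all tested genes. Erastin thus reached both genes that rose and genes that fell among the members, and their roles are taken in turn.

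Vegfa, the ligand that drives most vessel growth, was abundant in every library and shifted little. Its levels were 184, 170 and 178 CPM under NPPC-Exo and 221, 185 and 196 with erastin added. Under miR-Exo they were 164, 141 and 167 CPM, and 173, 188 and 175 with erastin. Both erastin groups stood above their partners without overlap, but the log2 change of 0.18 ± 0.08 was not called under either exosome, with adjusted p of 0.0753 under NPPC-Exo and 0.0591 under miR-Exo. The Vegfa change was sensitive to scaling: with library size alone it was 0.46 and 0.49 and was called (adjusted p 0.000116 and 5.58e-05), a setting that moved the median of all genes to 0.30 and 0.33. It was also called under NPPC-Exo without Erastin NPPC-Exo replicate 2 (0.25, adjusted p 0.025) or miR-Exo replicate 2 (0.0471), and under miR-Exo without miR-Exo replicate 3 (0.0444). At a nearly unchanged size it was called with a minimum of 5 CPM under each exosome (adjusted p 0.0483 and 0.0428), and under miR-Exo with DESeq2 (0.0499) and with the replicate block (0.0467). On log2(FPKM + 1), which carries no TMM factors, it was 0.44 and 0.48 with adjusted p of 0.00018 and 8.6e-05.

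Vegfc, the ligand of lymphatic growth, rose under both exosomes. It measured 24.6, 25.9 and 22.7 CPM under NPPC-Exo and 34.7, 28.9 and 31.2 with erastin, a log2 change of 0.37 ± 0.08 (adjusted p 0.00278). Under miR-Exo it went from 25.5, 27.0 and 27.6 CPM to 44.2, 41.9 and 38.6, a change of 0.64 ± 0.08 (adjusted p 3.17e-05). The libraries with erastin did not overlap those without in either setting. Placental growth factor, Pgf, behaved differently by exosome. Under NPPC-Exo it was 21.6, 22.2 and 25.7 CPM without and 17.7, 21.9 and 24.7 with erastin, overlapping groups whose difference was -0.11 ± 0.13 (95% interval -0.39 to 0.16, adjusted p 0.523) and turned to 0.17 with library size alone and to 0.03 without Erastin NPPC-Exo replicate 1. Under miR-Exo Pgf fell from 20.6, 25.1 and 25.8 CPM to 9.16, 10.2 and 8.90, a log2 change of -1.34 ± 0.13 (adjusted p 1.81e-06), and the groups lay far apart.

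Vegfb, a Flt1 ligand, had the lowest FPKM of the 4 ligands in every group. Its CPM was 3.64, 3.16 and 3.07 under NPPC-Exo and 2.65, 2.62 and 2.32 with erastin, a difference of -0.38 ± 0.33 that was not called (adjusted p 0.395). Under miR-Exo it was 9.06, 2.54 and 4.47 CPM and 2.52, 2.67 and 2.53 with erastin. The call there, -1.06 ± 0.33 (adjusted p 0.0173), rested on miR-Exo replicate 1, without which the change was -0.45 with adjusted p 0.129. The groups overlapped, and with library size alone the change was -0.75 with adjusted p 0.0643.

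Shares among the 4 ligands, by summed FPKM, do not depend on how libraries are scaled. Vegfa made up 64.0% ± 1.28 (SD, n = 3) under NPPC-Exo, 59.0% ± 1.80 under miR-Exo, 65.3% ± 2.46 with erastin and NPPC-Exo and 65.1% ± 1.44 with erastin and miR-Exo. Vegfc took 13.5 to 16.0% under NPPC-Exo, 15.7 to 18.1% under miR-Exo and 16.7 to 17.9% with erastin and NPPC-Exo, but 24.3 to 27.0% with erastin and miR-Exo. For Pgf the corresponding ranges were 17.4 to 20.8%, 17.3 to 22.9%, 12.4 to 18.1% and 7.63 to 8.11%. The erastin and miR-Exo libraries therefore stood outside the other 9 for both Vegfc and Pgf. Relative to Vegfa counts, Pgf was at a log2 ratio of -2.94 ± 0.15 under NPPC-Exo, -2.73 ± 0.25 under miR-Exo, -3.24 ± 0.35 with erastin and NPPC-Exo and -4.24 ± 0.05 with erastin and miR-Exo. No separate test was run on shares or ratios.

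**Figure D2:**
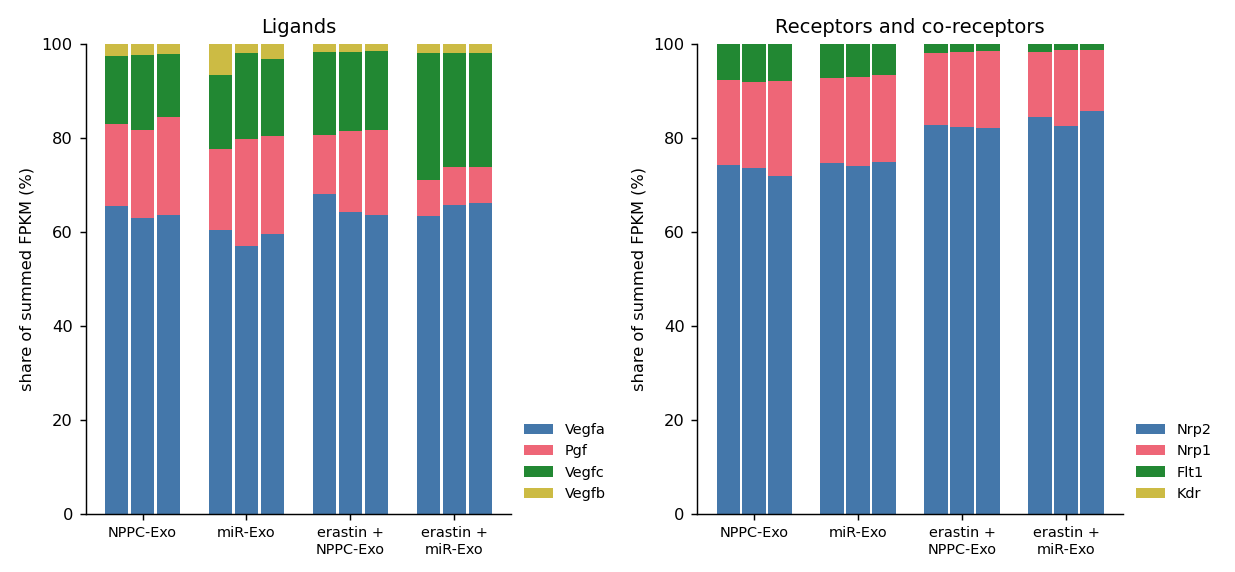
Percent of summed FPKM taken by each of the 4 VEGF ligands and each of the 4 receptors and co-receptors, with 1 bar per library in 4 groups of 3; Kdr is too low to be seen. Group means with erastin and miR-Exo were 7.80% of ligand FPKM for Pgf and 25.2% for Vegfc, and the mean Flt1 share of receptor FPKM was 7.92% under NPPC-Exo and 1.72% with erastin added.

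Among receptors, Flt1 fell under both exosomes. It measured 25.0, 27.6 and 25.6 CPM under NPPC-Exo and 8.86, 8.27 and 6.76 with erastin, a log2 change of -1.71 ± 0.14 (adjusted p 2.58e-07). Under miR-Exo it went from 20.9, 20.7 and 19.1 CPM to 6.65, 4.72 and 4.86, a change of -1.90 ± 0.14 (adjusted p 9.27e-08). No library with erastin came near a library without it. Kdr, the main signalling receptor for Vegfa, had 6 counts in NPPC-Exo replicate 1, 9 in miR-Exo replicate 3 and 0 in the other 10 libraries, where a count of 0 allows up to 0.044 to 0.0565 CPM (3 counts, counting error only). If both mates of a read pair were counted, which was not tested, these counts stand for fewer fragments. It was too low to test, and Flt1 was the more abundant of the Vegfa-binding receptor kinases by FPKM in every group.

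The neuropilins made up most of the receptor FPKM. Nrp2 rose under both exosomes, from 221, 229 and 211 CPM to 336, 358 and 354 under NPPC-Exo, a log2 change of 0.67 ± 0.05 (adjusted p 1.69e-07). Under miR-Exo it rose from 197, 197 and 200.2 CPM to 296, 266 and 285, a change of 0.51 ± 0.05 (adjusted p 2.02e-06). Nrp1 moved less: 47.3, 49.9 and 51.7 CPM under NPPC-Exo became 54.1, 60.6 and 61.9 with erastin, a change of 0.25 ± 0.08 (adjusted p 0.0194). That call was lost without NPPC-Exo replicate 1 (adjusted p 0.0676) and without Erastin NPPC-Exo replicate 2 (0.051) or replicate 3 (0.0628). Under miR-Exo Nrp1 was 41.9, 44.4 and 43.8 CPM without and 43.0, 45.4 and 37.5 with erastin, overlapping groups with a difference of -0.05 ± 0.08 (adjusted p 0.644), which became 0.26 with adjusted p 0.0126 under library size alone. By FPKM, Nrp2 held 71.9 to 74.2% of the 4 receptors under NPPC-Exo and 82.2 to 82.8% with erastin added, while Flt1 dropped from between 7.66 and 8.13% to between 1.44 and 1.98%. Under miR-Exo the Nrp2 share went from 73.9 to 74.8% up to 82.6 to 85.8%.

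Angpt1, the vessel-stabilising ligand of Tek, rose most among the members. It was low without erastin, at 3.16, 2.97 and 2.26 CPM under NPPC-Exo and 2.54, 2.20 and 2.76 under miR-Exo. With erastin it reached 7.40, 11.4 and 11.5 CPM under NPPC-Exo, a 3.61-fold rise (log2 1.85 ± 0.19, adjusted p 2.71e-06). Under miR-Exo it reached 22.5, 19.1 and 18.4 CPM, an 8.00-fold rise (log2 3.00 ± 0.19, adjusted p 2.84e-08). All 6 libraries with erastin exceeded all 6 without, and the miR-Exo libraries with erastin exceeded those with NPPC-Exo. Only 715 of the 15650 tested genes had a larger positive log2 change under NPPC-Exo and 368 under miR-Exo.

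Esam, the junctional adhesion gene, showed the widest change of the members. It was at 112, 108 and 128 CPM under NPPC-Exo and at 3.03, 2.74 and 2.27 CPM with erastin, a 43.4-fold fall (log2 -5.44 ± 0.14, adjusted p 1.02e-11). Under miR-Exo it went from 122, 125 and 129 CPM to 2.35, 1.54 and 1.62, a 68.1-fold fall (log2 -6.09 ± 0.15, adjusted p 3.33e-12). Only 69 of 15650 genes had a more negative log2 change under NPPC-Exo and 60 under miR-Exo. Among mural cell markers, those of pericytes and smooth muscle, 6 of 8 were called lower under each exosome, and 2 were not called. Of all tested genes, 21.5% were called higher and 22.1% lower under NPPC-Exo, and 24.7% and 24.4% under miR-Exo. The summed mural level went from 269.2 to 273 FPKM down to 76.01 to 77.91 under NPPC-Exo. Under miR-Exo it went from 268.4 to 278.6 down to 69.82 to 72.22. Myh11, Cspg4 and Pdgfrb carried most of that sum, and the nucleus pulposus and cartilage sum fell too, as given above. The log2 changes under NPPC-Exo and miR-Exo were -3.12 and -3.66 for Myh11, a smooth muscle myosin, -2.99 and -2.92 for Cspg4, a pericyte proteoglycan, and -0.83 and -0.95 for Pdgfrb, the receptor that recruits pericytes. The part of these markers in the Esam result was not tested. Of the endothelial list, the summed level was 9.45 to 10.04 FPKM under NPPC-Exo and 6.59 to 8.65 with erastin, and 8.62 to 9.93 under miR-Exo and 4.52 to 7.96 with erastin. Of its 11 tested genes 4 were called higher and 2 lower with erastin under NPPC-Exo, and 4 higher and 3 lower under miR-Exo. The median log2 change under NPPC-Exo was that of Vwf, 1.30 ± 1.25, which was not called. Vwf averaged 0.023 FPKM without erastin and 0.073 with it. Under miR-Exo the median, 0.98, was that of Tek, at means of 0.267 and 0.647 FPKM, so each median rests on a gene under 1 FPKM. The transcription factor gene Erg fell, with log2 changes of -3.18 and -3.83, and Tek rose, with 1.32 and 0.98. Of 5 tested myeloid markers 2, Cd14 and Cd68, were called higher with erastin under each exosome, and 3 were not called. Of all tested genes, 43.6% and 49.1% were called in either direction. The list's median log2 change was 0.64 ± 1.70 under NPPC-Exo, the value of Itgam, and -0.15 ± 0.54 under miR-Exo, that of Csf1r. Neither gene was called in these comparisons, and both stayed under 1 FPKM. The Cd68 groups overlapped under NPPC-Exo. Cd14 and Cd68 were again called higher for miR-Exo against NPPC-Exo with erastin, where 15.6% of all tested genes were. The myeloid list summed to 3.8 to 4.77 FPKM under NPPC-Exo and 7.89 to 10.86 with erastin, and to 5.01 to 5.79 under miR-Exo and 15.09 to 19.4 with erastin. Most of this sum was Cd14, and 5 of the 7 genes in the table stayed under 1 FPKM throughout. The part of the endothelial and myeloid markers was not tested either.

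The genes whose log2 CPM followed Esam most closely over the 12 libraries, among 10161 genes with a mean of at least 5 CPM, were Acan (Pearson r 0.997), the collagen-binding integrin gene Itga11 (0.997) and Ccdc80 (0.997). For Flt1 they included Slc2a13 (0.992) and Dock8 (0.992), and for Vegfa they were Spred2 (0.938), Pogz (0.931) and Tp53bp2 (0.929). These values describe likeness over libraries that share the 4 groups, and erastin separates the points for Esam and Flt1 into low and high sets.

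**Figure D3:**
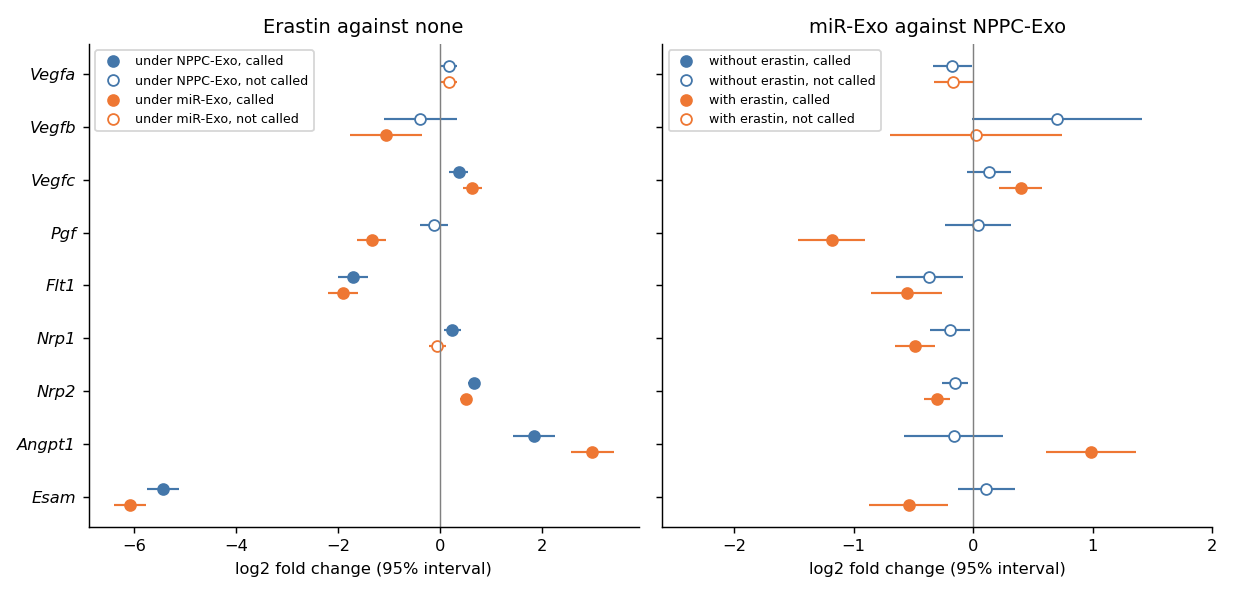
Log2 fold changes of the 9 tested members with 95% intervals, for erastin against none under each exosome (left) and for the exosome difference, miR-Exo minus NPPC-Exo, at each erastin state (right); filled points were called and open points were not. Esam lies near -5.44 and -6.09 on the left, and Pgf at -1.18 and Angpt1 at 0.98 stand apart with erastin on the right.

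The second question was whether the exosome carrying miR-221-3p changed these genes. Its comparisons reuse the groups of the erastin comparisons, so their values are given side by side and are not independent of them. Without erastin, 0 of 9 members were called by edgeR, where 10.7% of all tested genes were called, 4.15% higher and 6.52% lower, and 4 members had an unadjusted p under 0.05: Vegfa, Flt1, Nrp1 and Nrp2, all lower with miR-Exo and with groups that did not overlap. Of all tested genes, 25.5% had an unadjusted p under 0.05 and 28.8% had groups that did not overlap. Their log2 differences were -0.18 ± 0.08 for Vegfa (adjusted p 0.165), -0.37 ± 0.13 for Flt1 (adjusted p 0.0975), -0.19 ± 0.08 for Nrp1 (adjusted p 0.133) and -0.15 ± 0.05 for Nrp2 (adjusted p 0.0764). DESeq2 called 1 member, Nrp2, and the fit of these 2 groups alone called 1, Flt1. Vegfb was called higher (log2 1.04, adjusted p 0.0272) when miR-Exo replicate 2 was left out, beside 0.70 ± 0.33 and adjusted p 0.202 with all libraries. For Pgf, Angpt1 and Esam the 95% intervals of the log2 difference were -0.23 to 0.31, -0.58 to 0.25 and -0.13 to 0.35.

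With erastin present, 7 of 9 members were called between miR-Exo and NPPC-Exo, 2 higher and 5 lower, where 31.3% of all tested genes were called, 15.6% higher and 15.8% lower. The median log2 difference of the members was -0.31, beside 0.01 for all genes. Angpt1 (0.98 ± 0.18, adjusted p 0.00092) and Vegfc (0.40 ± 0.08, adjusted p 0.0031) were higher with miR-Exo. Pgf was the lowest against NPPC-Exo at -1.18 ± 0.13 (adjusted p 2.3e-05), followed by Flt1 at -0.56 ± 0.14 (adjusted p 0.0074), Nrp1 at -0.49 ± 0.08 (adjusted p 0.000384) and Nrp2 at -0.31 ± 0.05 (adjusted p 0.000512). In these 6 of the 9 tested members the 3 miR-Exo libraries did not overlap the 3 NPPC-Exo libraries, as was the case for 48% of all tested genes. Esam was also called lower at -0.54 ± 0.15 (adjusted p 0.0168), but its groups overlapped and the call was lost without Erastin NPPC-Exo replicate 1 (adjusted p 0.0566), Erastin miR-Exo replicate 2 (0.0626) or replicate 3 (0.0512), and when only these 2 groups were fitted (0.0932). The Flt1 call was lost on log2(FPKM + 1) and log2(FPKM + 0.1), with adjusted p of 0.0588 and 0.0505, and the Esam call on log2(FPKM + 1), with 0.0697. Vegfa differed by -0.17 ± 0.08 (adjusted p 0.11), and was called lower without Erastin NPPC-Exo replicate 2 (-0.24, adjusted p 0.0395), whereas Vegfb differed by 0.02 ± 0.33 with a direction that changed with single libraries.

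Whether the erastin effect itself differed between exosomes was tested as an interaction, the effect under miR-Exo minus that under NPPC-Exo. It was called for 3 of 9 members, 1 higher and 2 lower, where 12.8% of all tested genes were called, 5.81% higher and 7.01% lower. Pgf had the lowest value at -1.23 ± 0.18 (adjusted p 0.00151): erastin lowered it under miR-Exo, and under NPPC-Exo its groups overlapped. Angpt1 had 1.15 ± 0.26 (adjusted p 0.0131), the rise being larger under miR-Exo. Esam had -0.65 ± 0.19 (adjusted p 0.0403), a call that was lost in 9 of the 12 settings that left out a library, with adjusted p from 0.00725 to 0.0904, and with the replicate number as a block (-0.66, adjusted p 0.0509) and on log2(FPKM + 1) and log2(FPKM + 0.1) (0.058 and 0.066). Omitting any library ended it except NPPC-Exo replicate 3, Erastin NPPC-Exo replicate 3 and Erastin miR-Exo replicate 1. For Nrp1 the interaction was -0.29 ± 0.11 (adjusted p 0.0953), and it was called without Erastin NPPC-Exo replicate 1 (-0.38, adjusted p 0.044). The values for Vegfc (0.27 ± 0.12, adjusted p 0.168), Nrp2 (-0.16 ± 0.07, adjusted p 0.175), Flt1 (-0.19 ± 0.19, adjusted p 0.57), Vegfb (-0.68 ± 0.47, adjusted p 0.384) and Vegfa (0.01 ± 0.11, adjusted p 0.985) were not called.

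**Figure D4:**
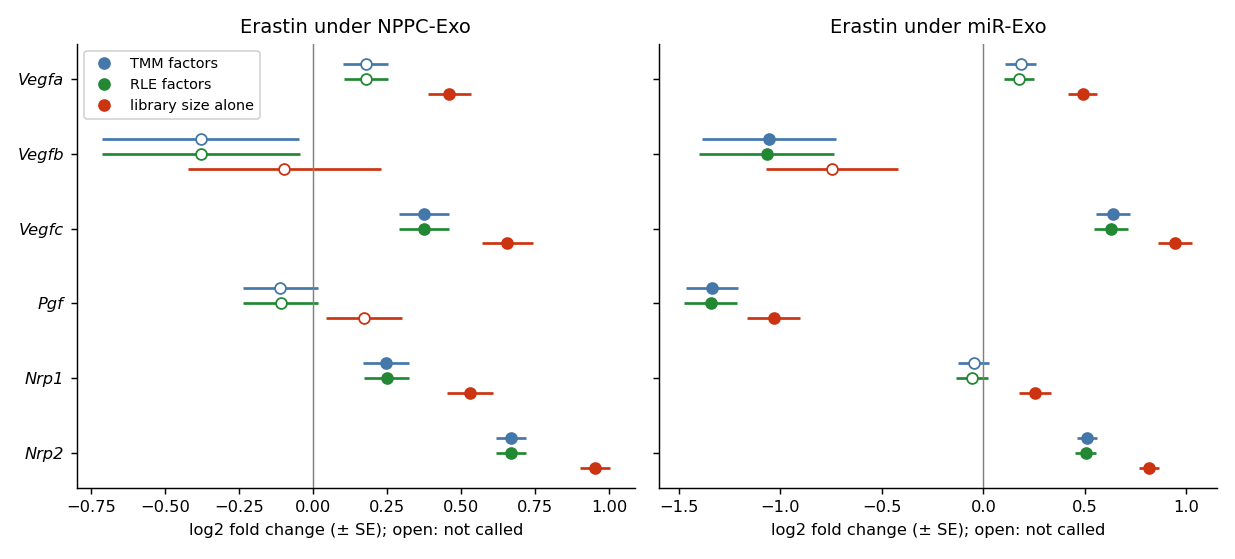
Log2 change (± SE) with erastin of 6 members under each exosome, with TMM factors, RLE factors and library size alone; open points were not called. Library size alone lies to the right of both other scalings throughout, Vegfc and Nrp2 kept their side of 0, and Pgf under NPPC-Exo (-0.11 against 0.17) and Nrp1 under miR-Exo (-0.05 against 0.26) changed sides.

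Lists of related genes also held calls in both directions with erastin. Each list count below is to be read beside the shares of all tested genes. These were 21.5% called higher and 22.1% lower under NPPC-Exo, and 24.7% and 24.4% under miR-Exo. Of 8 tested other VEGF and angiopoietin ligands and receptors, 4 rose and 3 fell under each exosome. Angptl4, a lipase inhibitor related to the angiopoietins, went from a mean of 3.86 to 103.3 CPM under NPPC-Exo and from 4.32 to 168 CPM under miR-Exo, changes of 4.74 and 5.28 on the log2 scale. On the same scale Angptl2 changed by -1.55 and -2.53, Angpt4 by 3.59 and 2.31, and the lymphatic ligand gene Vegfd by -0.94 and -1.0003. Tek, the receptor for Angpt1, rose by 1.32 and 0.98 from means of 0.197 and 0.267 FPKM. Between exosomes with erastin, Angptl2 was lower with miR-Exo at -1.44 ± 0.09 (adjusted p 2.3e-07), Flt4, the receptor for Vegfc, was lower at -0.84 ± 0.17 (adjusted p 0.0023), and Angptl4 was higher at 0.70 ± 0.09 (adjusted p 7.2e-05). Angptl2 and Flt4 were also called lower with miR-Exo without erastin. Mean CPM there was 67.6 under NPPC-Exo and 49.6 under miR-Exo for Angptl2, and 4.84 and 3.00 for Flt4. In 4 settings that left out a library, only 1 gene of the list was called lower there.

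Among 18 tested genes that transmit VEGF receptor signals, 4 rose and 4 fell with erastin under NPPC-Exo, near the shares of all tested genes. Under miR-Exo 6 rose and 6 fell. With library size alone the counts were 11 higher and 2 lower, and 10 higher and 4 lower. Log2 changes were -1.41 and -1.39 for Cav1, the scaffold protein of caveolae, and -1.08 and -1.34 for Gab1, a docking adaptor. Gipc1, a neuropilin-binding scaffold, was lower with miR-Exo than with NPPC-Exo in the presence of erastin, at -1.89 ± 0.31 (adjusted p 0.00051). In that comparison Shc2 was called higher, at mean CPM of 3.82 with NPPC-Exo and 8.16 with miR-Exo, and Prkca lower, at 45.8 and 29.4. Of the 18 genes, 2 were called higher and 6 lower there, beside 15.6% and 15.8% of all tested genes. The semaphorins and plexins, which share the neuropilins with VEGF, gave 4 higher and 6 lower of 12 tested under NPPC-Exo and 4 higher and 5 lower under miR-Exo. Both Sema3d, with log2 changes of -1.93 and -1.91, and Sema3e, with -1.57 and -1.5994, fell. Plxnd1, the receptor for Sema3e, rose by 1.4995 under NPPC-Exo and 1.02 under miR-Exo, and Sema3c rose by 0.78 and 0.92.

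Of 16 tested other angiogenic ligands, 5 rose and 8 fell with erastin under NPPC-Exo and 4 rose and 11 fell under miR-Exo, with median log2 changes of -0.46 and -0.82. The Notch ligand gene Jag1 fell, with log2 changes of -3.19 and -3.64, as did the matricellular gene Ccn2 with -0.94 and -1.38. Ccn1 changed by -0.95 under NPPC-Exo and -1.35 under miR-Exo, and Adm, the vasodilator adrenomedullin, rose by 2.14 and 2.10. Of 14 tested angiogenesis inhibitors, 2 rose and 9 fell under NPPC-Exo and 3 rose and 8 fell under miR-Exo, with medians of -1.01 and -0.995. Col4a3, whose collagen gives the fragment tumstatin, changed by -4.95 and -4.83 on the log2 scale, Fbln5 by -2.65 and -2.91, and the protease gene Adamts8 by 4.69 and 4.19. Thbs1, an inhibitor that is among the most abundant transcripts of these cells, was lower with miR-Exo than with NPPC-Exo at -0.9986 ± 0.06 with erastin (adjusted p 1.4e-07), as was Serpinf1 at -0.99 ± 0.07 (adjusted p 5.3e-07). Both were also called lower with miR-Exo without erastin. Mean CPM there was 14960 under NPPC-Exo and 10380 under miR-Exo for Thbs1, and 357 and 255 for Serpinf1. With erastin Adamts1 was called higher with miR-Exo, at mean CPM of 369.4 with NPPC-Exo and 570.9 with miR-Exo. Of the 14 inhibitors, 3 were called higher and 8 lower between exosomes with erastin, beside 15.6% and 15.8% of all tested genes.

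Vegfa is a known target of the hypoxia-inducible factors. Of 17 tested hypoxia regulators and targets, 3 rose and 8 fell with erastin under each exosome, counts that became 5 and 3 under NPPC-Exo and 7 and 5 under miR-Exo with library size alone. Ca9, a carbonic anhydrase induced by low oxygen, changed by -1.80 and -2.00 on the log2 scale and the glycolysis regulator Pfkfb3 by -0.80 and -0.73. Egln3, which marks hypoxia-inducible factors for degradation, rose by 2.96 under NPPC-Exo and 4.03 under miR-Exo. With erastin, Hif1a was higher with miR-Exo than with NPPC-Exo at 0.53 ± 0.06 (adjusted p 3.8e-05). Ca9 was called lower there, at mean CPM of 154.2 with NPPC-Exo and 97.8 with miR-Exo. Of the 17 genes, 5 were called higher and 4 lower in that comparison, beside 15.6% and 15.8% of all tested genes. Of 19 junction and endothelial adhesion genes other than Esam, 6 rose and 4 fell under each exosome, with median log2 changes of 0.12 and 0.48. Over all tested genes 21.5% were called higher and 22.1% lower under NPPC-Exo, and 24.7% and 24.4% under miR-Exo. Vcam1, a leukocyte adhesion molecule, went from means of 0.589 and 0.562 CPM to 35.5 and 51.1, and Mcam, an adhesion gene of vessel walls, fell, with log2 changes of -2.53 and -2.33. Icam1, which also binds leukocytes, rose by 1.13 under NPPC-Exo and 1.12 under miR-Exo. Esam therefore fell beside some adhesion genes and against others.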

How the data were processed

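Per the labels' protocols, total RNA was taken with TRIzol and made into dUTP strand-marked libraries, and the submitters' processing notes name StringTie and the mRatBN7.2 build without versions. For the aligner and counter, none is given in the sources used here. The authors deposited 1 table of raw counts per gene and of FPKM, their length- and library-scaled level, for 12 libraries. Table coordinates appear to belong to another assembly, so none are printed. Of counts from 1 to 20, 57.3% were even, a pattern that counting each mate separately would give. With halved counts the same members were called in each comparison.

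Counts were tested with edgeR 4.0.16 (R 4.3.3) by the quasi-likelihood test: filterByExpr, TMM factors (0.877 to 1.15), 4 group means, 8 residual degrees of freedom, and Benjamini-Hochberg adjustment over 15650 genes for each of 5 comparisons. Members' CPM use the same factors. They were 0.877 to 0.878 under NPPC-Exo and 0.919 to 0.946 under miR-Exo. With erastin they were 1.06 to 1.08 under NPPC-Exo and 1.14 to 1.15 under miR-Exo. The factors thus moved with treatment, and the deposited FPKM and sums of it carry none. The edgeR step was tried on simulated counts for 1 comparison, erastin under NPPC-Exo. Far fewer genes were changed there than were called in the data, so it cannot decide if the scaling suits these data. Alternatives were DESeq2 1.42.0, limma 3.58.1 on log2(FPKM + 1) or log2(FPKM + 0.1), other scalings and filters, halved counts, a replicate block and each library left out. All 10 members are named. From each other list, at most 3 genes a comparison, those with the smallest adjusted p among genes called, were named. Genes named for erastin under 1 exosome are also given under the other. Members and lists were chosen with earlier results of these data known. No 2 libraries held identical values. Deviations of same-numbered libraries correlated at -0.241 to 0.422 over 18 pairs, the highest between replicates numbered 1, and not every pair deviated together, so numbers were not used to pair them. Erythroid genes (1 in the table) and adipocyte genes (4) were too low to test. Of the 3 genes most like Flt1, 1 is not reported here.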

Additional observations from a re-analysis of the deposited data

Results flagged for a closer look

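For 3 members the erastin effect differed between the exosomes by the edgeR interaction test, adjusted over all 15650 genes. For Pgf the effect under miR-Exo minus that under NPPC-Exo was -1.23 on the log2 scale (SE 0.18, adjusted p 0.00151), with the 3 erastin and miR-Exo libraries below the other 9. For Angpt1 it was 1.15 (SE 0.26, adjusted p 0.0131), with those 3 libraries above the other 9. For Esam it was -0.65 (SE 0.19, adjusted p 0.0403), at levels between 1.54 and 3.03 CPM in the 6 libraries with erastin. The Esam call was lost with the replicate block (adjusted p 0.0509), on both FPKM scales (0.058 and 0.066) and in 9 of 12 settings that left out a library.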

How the results depend on the processing

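Over the members, 405 of the results outside the leave-one-out settings kept direction and side of the threshold, 10 lost a call, 12 gained one and 9 changed direction. With each library left out in turn, 506 kept both, 16 lost a call, 6 gained one and 12 changed direction.

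Library size alone in place of TMM raised the share of calls that were higher from 49.3% to 77.8% with erastin under NPPC-Exo, from 50.4% to 76.4% under miR-Exo, from 38.9% to 68.7% for miR-Exo without erastin and from 49.7% to 68.6% with it. Pgf under NPPC-Exo then changed direction with erastin to 0.17, and to 0.15 on both FPKM pseudocounts, and Nrp1 under miR-Exo to 0.26, 0.22 and 0.24. For the Vegfa interaction, near 0, the value was -0.0032 with RLE factors and with DESeq2 and -0.0068 without a filter. Leaving out single libraries moved Pgf with erastin under NPPC-Exo between -0.2101 and 0.0278, Nrp1 under miR-Exo between -0.122 and 0.0134, Pgf between exosomes without erastin from -0.0195 to 0.1351, Vegfb between exosomes with erastin from -0.0542 to 0.0371, and the Vegfa interaction from -0.079 to 0.0509. The cause was not tested.

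Members called for miR-Exo without erastin numbered 1 with DESeq2 and 1 with these 2 groups alone, and 0 to 1 leaving out libraries. Over the other comparisons, leaving out libraries gave 5 to 7 members with erastin under NPPC-Exo, 6 to 8 under miR-Exo, 6 to 8 between exosomes with erastin and 2 to 3 for the interaction. Genes called ranged from 5971 to 6865, 6766 to 7878, 970 to 1854 (fewest without NPPC-Exo replicate 2, and 1042 without miR-Exo replicate 2), 3784 to 5168 and 1205 to 2419 for the interaction, fewest without Erastin NPPC-Exo replicate 3. The replicate block, fitted though numbers did not pair the libraries (6 of 12 correlated best with their own number), called 6, 8, 0, 7 and 2 members and 6720, 7596, 1560, 4847 and 1928 genes in the same order.

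Depth limits Kdr, with 0 to 9 counts a library.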
